A study of Mus musculus with 2 samples.

Results

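A footprint is a short stretch of DNA that is cut less often than its surroundings inside open chromatin, and a DNase I peak that holds many of them is described here as packed with footprints. The 2019 packed peaks were selected on their footprint counts: a peak of the wider deposited set of replicate 1 on chromosomes 1 to 19 had to overlap a replicate 2 peak by at least 1 bp, to hold the midpoints of 6 or more replicate 1 footprints, and to be matched by a replicate 2 peak with 6 or more replicate 2 footprints. They made up 2.15% of the 93861 peaks shared by both libraries. Each had a match among 1970 distinct replicate 2 peaks, and 96 packed peaks shared that match with another. Neighbouring deposited peaks of 1 library can overlap, so the 2019 packed peaks covered 1972 separate stretches of the genome, 740983 bp in all, and 92 of them overlapped another packed peak. The footprint counts and everything that follows directly from them are therefore a description of the choice, not a finding.

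Open chromatin was mapped by DNase-seq, which sequences the ends of DNA fragments released by DNase I from nuclei, in the gastrocnemius, a calf muscle, of male B6CASTF1/J mice aged 10 days. B6CASTF1/J animals are hybrids that carry 1 C57BL/6J and 1 CAST/EiJ genome. There was 1 group, with no treatment or genotype to compare, and it had 2 libraries that the labels number as biological replicates 1 and 2, under the same donor record and with 3 males named for each sample; the labels do not say whether tissue was pooled. With 1 group of 2 libraries no test between conditions could be made, and because peaks of a library are not replicates of each other, differences are given as values in both libraries, with exact (Clopper-Pearson) 95% binomial intervals for shares, which cover counting error only.

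Transcription factors and the machinery that assembles at transcription starts keep nucleosomes off the DNA, which makes it open to DNase I, and a bound factor can shield its own few bases from cutting. Promoters in CpG islands, GC-rich stretches that keep their CpG dinucleotides because they are usually free of methylation, are open in most cell types and carry binding sites for broadly expressed factors such as SP1, the KLF family, NRF1, NFY, YY1 and the ETS family. Enhancers lie away from starts and are more often particular to a cell type; in muscle many carry E-boxes, the sites of MyoD and its relatives.

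Replicate 1 had 119611 peaks and 304057 footprints on chromosomes 1 to 19, and replicate 2 had 145742 and 365016. The deposited value of a peak is the authors' signal, adjusted for how deeply each library was sequenced. All values below 20 were whole multiples of a step of 0.00544 in replicate 1 and 0.00587 in replicate 2, within 0.05 of a step, as scaled tag counts would be. At 1 tag per step the median packed peak rested on 750 tags in replicate 1 (range 89 to 3865) and 997 in replicate 2 (79 to 5965), against 171 and 194 for the other 91842 shared peaks. Values are given below for replicate 1 and then replicate 2, and counts of overlapping footprints refer to an overlap of at least 1 bp.

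The sequences that carry the pattern are those under the densest footprints. Packed peaks were ranked by the smaller of their 2 footprint counts, then by the sum of the counts and the peak value, and the first 6 are shown by the 200 bp, free of annotated UTR, that held the most footprint midpoints. The sequences are the plus strand of GRCm38 (mm10), written 5′ to 3′, and capitals mark bases that lay in a footprint of both libraries. Peaks are named by the gene with the nearest coding start. The stretches are chr8:48843015-48843214, chr11:120234554-120234753, chr6:88841985-88842184, chr13:60177557-60177756, chr9:57073302-57073501 and chr11:109611439-109611638.
Tenm3: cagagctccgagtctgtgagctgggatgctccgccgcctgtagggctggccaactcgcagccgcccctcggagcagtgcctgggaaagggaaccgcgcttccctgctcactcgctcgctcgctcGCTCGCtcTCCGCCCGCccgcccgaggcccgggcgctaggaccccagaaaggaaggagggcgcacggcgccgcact
Bahcc1: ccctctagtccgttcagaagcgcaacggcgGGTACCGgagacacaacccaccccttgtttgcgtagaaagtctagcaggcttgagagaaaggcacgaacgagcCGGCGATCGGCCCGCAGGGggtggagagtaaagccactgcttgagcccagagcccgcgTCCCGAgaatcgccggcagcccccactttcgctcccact
Abtb1: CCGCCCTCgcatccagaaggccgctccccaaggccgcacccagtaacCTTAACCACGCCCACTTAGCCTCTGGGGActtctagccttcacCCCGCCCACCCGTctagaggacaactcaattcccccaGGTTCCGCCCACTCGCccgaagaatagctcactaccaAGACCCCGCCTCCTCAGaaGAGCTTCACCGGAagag
Gas1: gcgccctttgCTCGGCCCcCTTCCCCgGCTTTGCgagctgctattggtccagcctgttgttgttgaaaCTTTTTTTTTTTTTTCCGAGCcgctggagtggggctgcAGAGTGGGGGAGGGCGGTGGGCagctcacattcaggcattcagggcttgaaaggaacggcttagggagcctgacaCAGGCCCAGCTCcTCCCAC
Sin3a: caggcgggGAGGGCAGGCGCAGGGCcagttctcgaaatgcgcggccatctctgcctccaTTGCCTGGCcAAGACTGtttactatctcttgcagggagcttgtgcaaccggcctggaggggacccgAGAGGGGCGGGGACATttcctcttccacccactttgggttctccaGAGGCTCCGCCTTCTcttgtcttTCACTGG
Wipi1: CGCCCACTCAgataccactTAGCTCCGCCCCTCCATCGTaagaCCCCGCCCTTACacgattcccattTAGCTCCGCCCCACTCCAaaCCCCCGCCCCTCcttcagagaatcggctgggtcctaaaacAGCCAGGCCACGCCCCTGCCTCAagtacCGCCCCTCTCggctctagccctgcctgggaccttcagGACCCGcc

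In the Wipi1 stretch 111 of 200 bases lay in a footprint of both libraries, and in the Abtb1 stretch 96 did. With overlapping matches counted once, the letters GGGCGGG or their reverse complement CCCGCCC, which SP and KLF factors read, occurred 2 times in the Wipi1 stretch. They occurred 1 time each in the Abtb1, Tenm3 and Sin3a stretches, and each counted match was centred on a base in capitals. In the Tenm3 stretch another CCCGCCC overlapped the counted one and was centred outside the capitals. The Gas1 stretch had 83 bases in footprints of both libraries, the Sin3a stretch 71 and the Bahcc1 stretch 32. In the Tenm3 stretch 15 bases were shared, although replicate 1 had 4 footprint midpoints there and replicate 2 had 7. A large number of footprints in both libraries was thus met both by peaks whose footprints fell on the same bases and by peaks where they did not.

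The first 4 of the packed peaks over 5 kb from every annotated start are shown in the same way, to set sequence far from starts beside that of the first-ranked peaks: chr5:122146081-122146280, chr14:75834804-75835003, chr16:43464675-43464874 and chr9:102977825-102978024.
Ccdc63: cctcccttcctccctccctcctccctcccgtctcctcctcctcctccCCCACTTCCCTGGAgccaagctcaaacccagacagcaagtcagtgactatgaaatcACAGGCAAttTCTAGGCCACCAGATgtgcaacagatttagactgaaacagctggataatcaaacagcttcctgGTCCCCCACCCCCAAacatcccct
Tpt1: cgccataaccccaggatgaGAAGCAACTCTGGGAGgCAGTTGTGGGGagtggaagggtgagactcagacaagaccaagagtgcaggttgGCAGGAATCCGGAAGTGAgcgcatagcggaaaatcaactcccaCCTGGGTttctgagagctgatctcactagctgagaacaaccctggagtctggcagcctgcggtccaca
Zbtb20: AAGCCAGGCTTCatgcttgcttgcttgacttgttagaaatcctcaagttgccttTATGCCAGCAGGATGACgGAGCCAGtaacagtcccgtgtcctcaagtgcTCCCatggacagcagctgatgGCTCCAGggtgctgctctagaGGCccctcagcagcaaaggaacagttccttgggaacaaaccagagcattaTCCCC
Slco2a1: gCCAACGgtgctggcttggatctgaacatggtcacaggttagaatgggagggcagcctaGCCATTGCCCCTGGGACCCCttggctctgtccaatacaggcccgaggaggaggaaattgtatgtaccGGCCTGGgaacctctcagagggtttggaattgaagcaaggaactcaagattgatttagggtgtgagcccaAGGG

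These 4 stretches had 52, 52, 55 and 37 bases in footprints of both libraries. None held the SP/KLF letters GGGCGGG. The letters CCCCACCC of the CACCC box, which KLF factors also read, were centred in capitals in the Ccdc63 stretch. A CAGCTG E-box lay outside the capitals in the Ccdc63 and the Zbtb20 stretch, and the ETS letters CCGGAAG were centred in capitals in the Tpt1 stretch.

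Among the 2019 packed peaks the smaller of both footprint counts was 6 in 1183, 7 in 493, 8 in 189 and 9 in 84, and it reached 10 or more in few: 37 peaks had 10, 16 had 11, 6 had 12, 8 had 13, 2 had 14 and 1 had 15. The median count was 7 in both libraries, and the highest was 19 in replicate 1 and 17 in replicate 2. The counts of a peak were equal in 639, differed by 1 or less in 1340, and differed by up to 12. Replicate 1 had more in 780 and replicate 2 in 600. Across packed peaks the counts of both libraries had a rank correlation of 0.29 (Spearman's rho, n = 2019 peaks that share libraries and selection), against 0.50 over all 93861 shared peaks.

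Packed peaks were wide and of high value. Their median width was 340 bp in replicate 1 (quartiles 260 and 440, range 140 to 1820) and 300 bp in replicate 2, against 180 bp in both for other shared peaks. Their median value was 4.08 and 5.85, against 0.930 and 1.14. The highest were at starts: the peak of Fam53a had values of 21.02 and 28.7 with 7 footprints in each library, that of Fzr1, an activator of the anaphase-promoting complex, 20.9 and 32.6 with 8 in each, and that of Sde2 20.8 and 35.0. The widest, 1820 bp in coding sequence of Plec, the cytoskeletal linker plectin, had values of only 0.484 and 0.669 and 10 and 6 footprints, of which 1 overlapped. Fam53a, Fzr1, Sde2 and Plec were picked for these extremes after their values were seen.

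The share of peaks that were packed differed with width and with value. With shared peaks ordered by value and cut into 10 equal groups, 0 of 9384 were packed in the lowest group, 0.490% in the group below the middle and 10.3% in the highest. By width, 0.127% of peaks under 200 bp were packed, 1.80% of those from 200 bp to under 260, 6.89% from 260 to under 340, 12.5% from 340 to under 440 and 17.5% of those of 440 bp or more. Over all 93861 shared peaks the footprint count was correlated with value (rho 0.65 and 0.60) and with width (rho 0.43 and 0.37), and width with value (rho 0.38 and 0.29). Among the packed peaks, where the counts are cut off at 6, these were -0.04 in both libraries, 0.55 and 0.54, and -0.46 and -0.29. Packed peaks under 200 bp had a median value of 5.63 and 6.10, and those of 440 bp or more 2.13 and 2.68. The correlations are across peaks of the same libraries, and those among packed peaks follow in part from choosing them by their counts, so nothing is read from their difference.

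**Figure D1:**
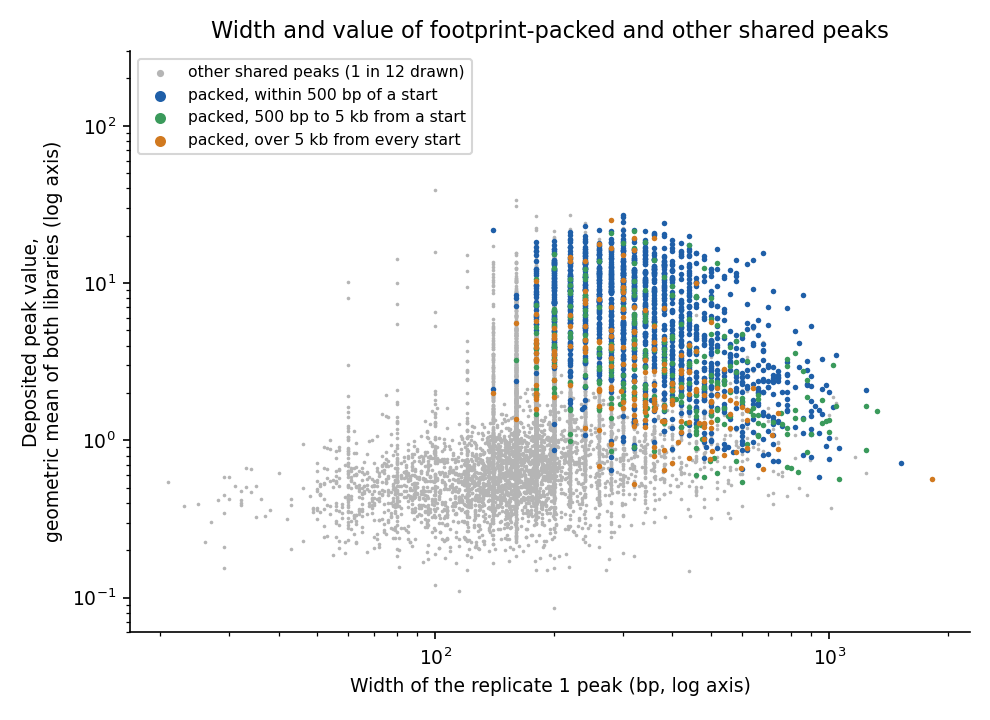
Width of the replicate 1 peak in bp against the geometric mean of both deposited values, both on log axes; coloured points are the 2019 packed peaks by distance to the nearest annotated start, grey points are every 12th of the shared peaks that is not packed. Packed peaks fill the upper right, and the widest of them lie at lower values.

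At the threshold, the 1183 peaks whose smaller count was 6 had a median width of 300 bp and values of 4.10 and 5.86, with 75.9% at starts. The 3342 peaks whose smaller count was 5, just outside, had 240 bp, 3.82 and 5.08, and 67.0% at starts. A further 3683 shared peaks reached 6 footprints in replicate 1 alone and 3856 in replicate 2 alone. The size of the set depends on the threshold and on using both libraries: at least 5 footprints in each library gave 5361 peaks and at least 8 gave 343, while 6 or more in 1 library, with no regard to the other, gave 5787 peaks in replicate 1 and 5684 in replicate 2.

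Packed peaks were mostly promoters. Of the 2019, 1564 (77.5%, interval 75.6 to 79.3) had their midpoint within 500 bp of an annotated start, against 25.5% of the other shared peaks. Another 267 (13.2%) lay between 500 bp and 5 kb from a start, and 188 (9.31%, interval 8.08 to 10.7) over 5 kb from every start, against 50.2% of the others. By annotation at the midpoint, the peaks away from starts comprised 203 in introns, 161 between genes, 56 in coding exons and 35 in other exons. Of the 1564 at starts, 149 (9.53%) had coding starts on both strands within 500 bp, the arrangement of a bidirectional promoter, against 6.07% of the 23375 other shared peaks at starts. Those with no coding start within reach, only that of a noncoding RNA or a noncoding transcript, numbered 69 (4.41%) against 17.9%.

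They were also rich in CpG. The median GC content of the replicate 1 peak was 69.1% against 55.8% for other shared peaks, and the median ratio of observed to expected CpG was 0.834 (quartiles 0.691 and 0.962) against 0.323. By the usual criterion of a CpG island's composition, GC of at least 50% and a ratio of at least 0.6, 1658 packed peaks (82.1%) were CpG-rich, against 23.3% of the others. At starts the share was 92.5% against 65.2% of other shared peaks at starts, and over 5 kb from every start 26.1% against 5.24%. Soft-masked repeats covered a median of 3.57% of a packed peak, against 0% of other shared peaks. They covered over 50% in 3 of the 2019 packed peaks and in 2553 of the 91842 others.

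Much of this composition is shared by any peak as wide and as high. When the other shared peaks were averaged with the packed peaks' own mix of 5 width bands and 5 bands of value (23 combinations with at least 20 other peaks each, holding 1939 of the 2019 packed peaks), 74.9% of them lay at starts, against 76.9% of those 1939. The share over 5 kb from every start was 10.3% against 9.64%, the share of CpG-rich peaks 77.0% against 81.5%, and the mean CpG ratio 0.754 against 0.789. The location of packed peaks at promoters thus differed little from that of equally wide and equally high peaks with fewer footprints.

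Values of packed peaks were higher in replicate 2. The ratio of the replicate 2 value to the replicate 1 value had a median of 1.49, and it was above 1 in 87.7%, against 1.17 and 64.1% for other shared peaks. With the same weighting by width and value, the mean ratio was 1.51 for packed and 1.51 for other peaks. Open chromatin reached well beyond the packed peaks: the unbroken run of positions that the authors list at a false discovery rate under 0.05 around a packed peak had a median of 1185 bp and 1180 bp, against 262 and 304 around other shared peaks, and in both libraries it covered 99.0% of the packed peaks from end to end. Other shared peaks were covered from end to end in 86.7% and 92.3%. The runs were not weighted by width and value.

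Around coding starts, packed peaks lay mainly upstream. For the 1329 packed peaks with coding starts on 1 strand only and the nearest within 500 bp, 57.6% of peak bases were upstream in replicate 1 and 62.6% in replicate 2, against 48.2% and 50.5% in the 17326 other shared peaks of that kind. Of their footprints 60.8% and 65.4% were upstream. Per 100 peak bases there were 2.17 and 2.28 footprint midpoints upstream and 1.90 and 2.02 downstream; in the other peaks these were 1.57 and 1.58 upstream and 1.15 and 1.11 downstream. The position most often inside a packed peak was 25 to 75 bp upstream of the start, where 83.4% to 83.5% of replicate 1 peaks had bases. The replicate 2 peaks ended sooner downstream: 100 to 125 bp after the start 46.3% of replicate 1 peaks but 35.5% of replicate 2 peaks covered the bases.

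**Figure D2:**
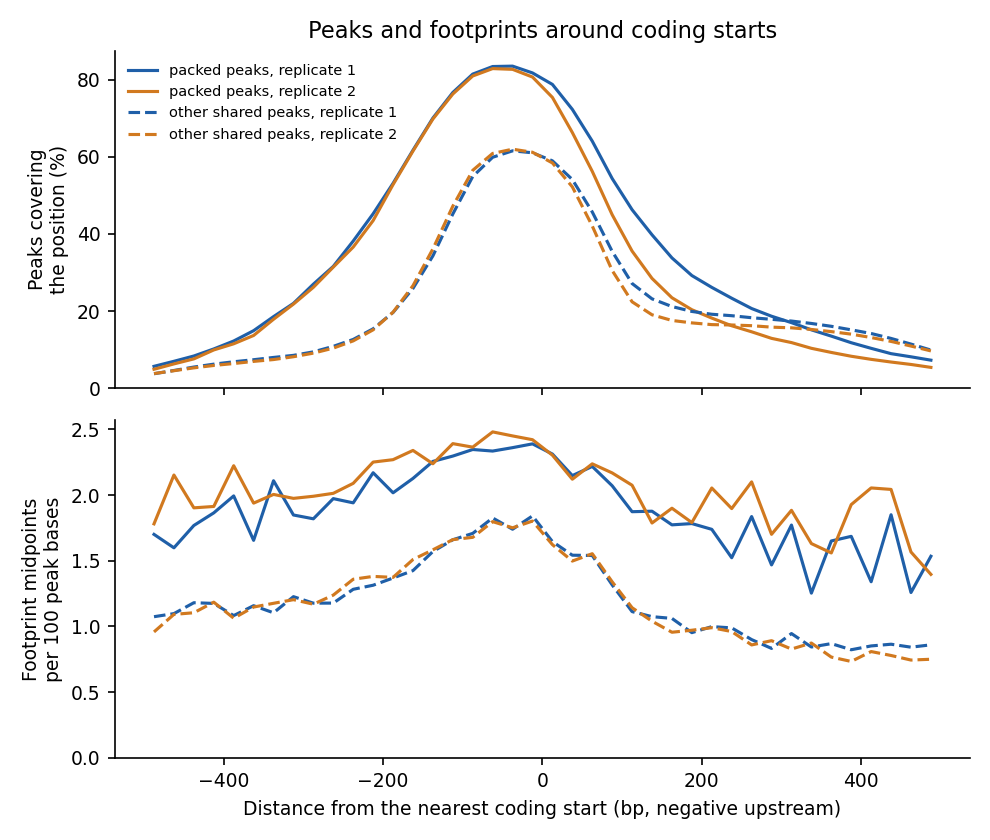
Distance from the nearest coding start in bp, in bins of 25 bp, negative upstream, against the percentage of peaks covering the bin (upper panel) and footprint midpoints per 100 peak bases (lower panel), for 1329 packed peaks (solid) and 17326 other shared peaks (dashed) in each library. The height of the solid lines in the lower panel follows from the selection; in packed peaks the density is highest within 75 bp upstream of the start (2.39 in replicate 1, 2.48 in replicate 2) and lower on both sides.

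Where single footprints fell was not used to select the peaks, but their number per peak was. Of the 15234 replicate 1 footprints counted over the packed peaks, 74.4% were overlapped by a replicate 2 footprint, while replicate 2 footprints covered 28.4% of the bases of those peaks. In the other direction the share was 73.2%, with 27.5% of bases covered. The other shared peaks had 65.5% and 60.7%, with 19.2% and 17.4% of bases covered. Denser footprints meet more often, so this contrast follows in part from the selection. The covered share of bases is not the overlap that random placement would give, because 1 bp is enough for an overlap. In 1080 packed peaks at least 6 replicate 1 footprints were overlapped, in 440 every one was, and in 81 fewer than 3 were.

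Agreement between libraries was higher in peaks of higher value. Where the geometric mean of both values was under 2, the 355 packed peaks had a median width of 480 bp, and 51.5% and 52.5% of their footprints were overlapped, with 15.3% and 15.6% of bases covered by the other library's footprints. For the 500 peaks from 2 to under 4 the shares were 68.4% and 67.3%, and for the 516 from 4 to under 8 they were 80.8% and 78.2%. In the 648 peaks of 8 and over they were 87.2% and 85.4%, with 41.3% and 38.6% of bases covered. Other shared peaks of the same value bands had 55.9% and 49.7% in the lowest and 86.3% and 86.9% in the highest. From 2 to under 4 they had 74.4% and 74.1%, and from 4 to under 8 82.1% and 81.2%. In these middle bands their shares were above those of packed peaks in both libraries. Packed peaks there were wider, with medians of 400 and 300 bp against 180 bp in both bands. In the lowest and highest bands the direction differed between libraries. At equal width instead of equal value, packed peaks had the larger share of replicate 1 footprints overlapped in all 5 width bands. It was 85.1% against 68.9% under 200 bp and 60.8% against 35.7% at 440 bp or more, where packed peaks also had the higher values. Overlap was not compared at equal width and value together. Depth and value rise together, and how far counting depth sets the agreement was not tested. The lower bands also hold fewer promoters: 49.3% of the 355 peaks under 2 lay at starts, against 92.1% of those at 8 and over.

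**Figure D3:**
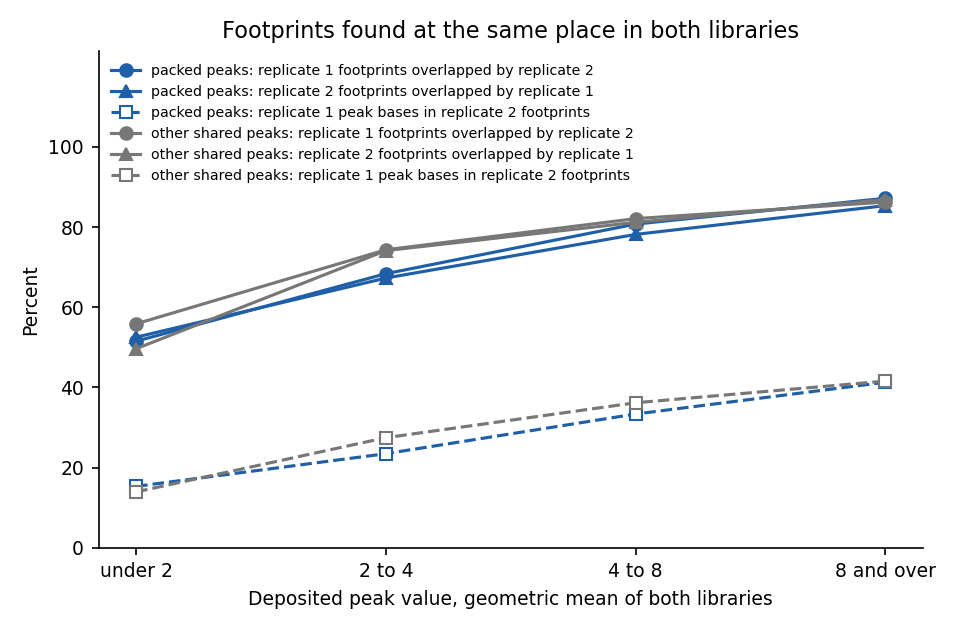
Bands of the geometric mean of both deposited peak values against the percentage of footprints overlapped by a footprint of the other library (filled symbols) and the percentage of replicate 1 peak bases in replicate 2 footprints (open squares), for packed and other shared peaks. Overlap climbs from 51.5% to 87.2% in packed peaks (replicate 1). Other shared peaks climb from 55.9% to 86.3% and lie above packed peaks in the bands from 2 to under 8.

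Footprints in packed peaks were about as wide as elsewhere. Their median width was 11 bp in replicate 1 and 12 bp in replicate 2, against 11 bp in both for other shared peaks, and the widest were shorter: the 95th percentile was 26 and 29 bp against 32 bp in both. Neighbouring footprint midpoints were a median of 41 and 39.5 bp apart, against 48 and 48.5. Footprints took up 26.4% and 30.6% of the bases of packed peaks, against 18.4% and 19.1%; the count of footprints is part of the selection, so the contrasts in spacing and in covered bases follow from it.

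The 12 first-ranked packed peaks were at or near starts of genes of several kinds. Tenm3 encodes teneurin-3, an adhesion protein of neural wiring. Its peak at chr8:48842901-48843840 had 15 footprints in each library and values of 1.51 and 1.63, and 5 of its replicate 1 footprints were overlapped. The peak near the start of Bahcc1, a BAH domain protein gene, at chr11:120234101-120235140, lay 1674 bp from the coding start in an intron and had 17 and 14 footprints, 11 overlapped, at values of 1.98 and 1.37. Both are wide peaks of modest value.

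The peaks of Abtb1 and Gas1, 680 and 780 bp wide, had higher values. The Abtb1 peak at chr6:88841881-88842560 had 14 and 15 footprints and values of 10.96 and 22.2, and all 14 replicate 1 footprints were overlapped. The peak of Gas1, a surface co-receptor of Hedgehog ligands, at chr13:60177101-60177880, had 18 and 13, 16 overlapped, at 4.86 and 10.0. In both peaks the replicate 2 value was the higher, as it was in 8 of the 12.

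The peak in an intron of Sin3a, the scaffold of a histone deacetylase complex, at chr9:57073121-57073520, had 13 and 17 footprints, 11 overlapped, at 5.27 and 13.5; its replicate 2 match was 860 bp wide against 400 bp. Wipi1, which binds phosphoinositides during autophagosome formation, had a peak at chr11:109611381-109611820 with 14 and 13 footprints, 13 overlapped, at 12.96 and 20.9, and a second packed peak that overlaps this one. Kdm2a, a histone demethylase that itself binds unmethylated CpG, had a peak at chr19:4397021-4397600 with 13 and 14, 12 overlapped, at 8.58 and 14.3. The same holds for it: another packed peak overlaps the first, so both count the same footprints.

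Slc25a42, a mitochondrial carrier of coenzyme A, had 13 and 14 footprints at chr8:70212241-70212880, 9 overlapped, with values of 6.14 and 13.8. Klf10, a Krüppel-like factor induced by TGF-beta, had 13 in each at chr15:38299001-38299640, 10 overlapped, at 9.96 and 19.4. The remaining 3 were broad, with values under the packed peaks' medians of 4.08 and 5.85. Vps54, a subunit of a Golgi tethering complex, had 13 and 14 at chr11:21238721-21239640, with 6 overlapped at 1.73 and 1.58. Chd3, a chromatin remodeller of the NuRD complex, had 14 and 13 at chr11:69368321-69369320, with 8 overlapped at 1.21 and 1.05. Irf2, an interferon regulatory factor, had 15 and 12 at chr8:46740541-46741320, with 8 overlapped at 3.03 and 2.93. In the 5 of the 12 peaks with values under 4 in both libraries, between 5 and 11 replicate 1 footprints were overlapped, and in the 7 others between 9 and 16.

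**Figure D4:**
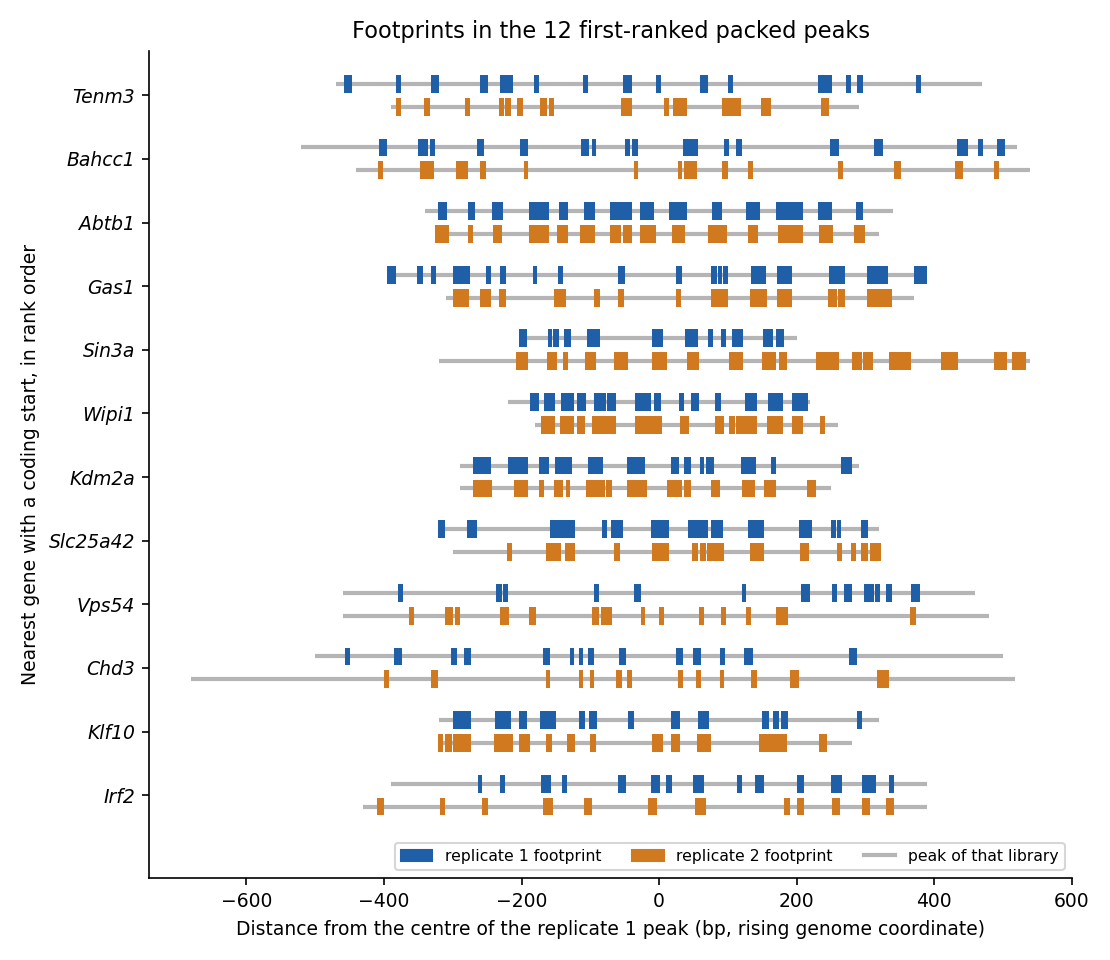
Footprints of the 12 first-ranked packed peaks, replicate 1 above and replicate 2 below for each gene, along the distance from the centre of the replicate 1 peak in bp; grey lines are the peaks. Blocks line up between libraries in Abtb1, Gas1 and Wipi1, and many do not in Tenm3 and Vps54.

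The 188 packed peaks over 5 kb from every start fell into a CpG-rich and a CpG-poor set. The 49 CpG-rich ones had a median CpG ratio of 0.833 and values of 3.72 and 4.93, and 35 of them lay between genes. The 139 others had a ratio of 0.284, GC of 56.7% and values of 1.57 and 2.72; 62 lay in introns and 70 between genes. Median width was 320 and 340 bp. Of their replicate 1 footprints 67.3% and 70.4% were overlapped.

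By rank the first distal peak was at chr5:122146081-122146620, 8289 bp from the nearest coding start, that of Ccdc63, with 10 and 12 footprints at values of 1.40 and 2.63. The second lay 10062 bp from the start of Tpt1, a highly expressed cytosolic protein gene, at chr14:75834801-75835260, with 9 and 12 at 1.99 and 2.11. The third, at chr16:43464641-43465040 in an intron of Zbtb20, a zinc finger repressor gene, had 11 and 9, and all 11 replicate 1 footprints were overlapped, at values of 1.31 and 3.94. These 3 and the next, at chr9:102977781-102978180, 30021 bp from the start of the prostaglandin transporter gene Slco2a1, with 9 and 11 footprints at 1.25 and 2.34, were CpG-poor, with ratios from 0.224 to 0.339.

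The other pair was CpG-rich. The peak at chr17:4908041-4908500, 86668 bp from the coding start of Arid1b, a subunit of the BAF remodelling complex, had a CpG ratio of 1.01, 9 and 10 footprints and values of 7.70 and 12.8. That at chr11:97404261-97404720, 11042 bp from the start of Arhgap23, had a ratio of 0.894, 9 and 10 footprints, 4 overlapped, and values of 2.03 and 2.18. The distal packed peak of highest value lay 14548 bp from the start of Zfp395, at 20.3 and 31.2 with 6 and 8 footprints; it was picked for its value.

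Motifs, short words of DNA that known factors read, were searched on both strands inside footprints and in the remaining bases of the same peaks, where a match of 1 word was assigned by its central base, overlapping matches of 1 motif counted once, and a base could count under several motifs. The word taken for SP and KLF factors was GGGCGGG, that of NRF1 was CGCATGCG and that of CREB and ATF factors, the CRE, was TGACGTCA. For other promoter factors the words were GTTGCCA for RFX, then ATGGCGG for YY1, then CCGGAAG for the ETS family, then GCGTGGG for EGR, then CCAATNA for NFY, then TTCCCGCC for E2F, then TCACGTG for USF, then ACTACANTT for ZNF143, then CCCCACCC as the CACCC box and TATAAA as the TATA box. Words linked to muscle or to signals were CAGCTG for the muscle E-box, then GGAATG for TEAD, then TGANTCA for AP-1, then TGTGGTT for RUNX and TGTTTAC for forkhead factors. The MEF2, SRF CArG, CTCF core and full NFI sites complete the 22 searched. A match describes letters and not a bound factor. Within 300 bp around the middle of the peak, SP/KLF letters were present in 68.5% of the 1564 packed peaks at starts, in 39.2% of the 23375 other shared peaks at starts and in 25.8% of 31396 RefSeq promoters of the same length (GRCm38.p6). The muscle E-box ran the other way, with 14.6%, 20.99% and 16.3%, as did the TATA box, with 3.32%, 4.30% and 13.6%. NRF1 letters were in 3.71%, 2.29% and 1.86%, ETS letters in 15.4%, 11.6% and 9.004%, and NFY letters in 17.6%, 11.4% and 15.4%. Of the peaks at starts, 92.5% of packed and 65.2% of other shared ones were CpG-rich, which bears on how often GGGCGGG occurs. Their median values were 4.85 and 7.52 against 2.04 and 2.46. These shares were not weighted by CpG content, width or value.

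In packed peaks the SP/KLF letters were 3.61-fold denser inside replicate 1 footprints than in the other bases, at 7.56 against 2.09 per kb, and 4.12-fold denser in replicate 2, at 8.09 against 1.96. They occurred in 9.72% and 11.1% of footprints, and 47.8% and 50.7% of packed peaks had at least 1 footprint with them. At starts these were 54.2% and 58.1%, against 21.3% and 23.0% of other shared peaks at starts, which hold fewer footprints. In 120 and 148 packed peaks 3 or more footprints held them. The Wipi1 peak led with 6 in each library, and next came B4galt5 with 5 and 6 and Myo9b, Ccdc9 and Larp1b with 5 in each; these were picked for their number. With peaks at starts alone on both sides, the contrast was 3.42-fold and 4.02-fold in packed peaks and 3.96-fold and 4.59-fold in the others. The letters themselves were more frequent in packed peaks, at 8.45 and 9.12 per kb of footprint against 6.06 and 6.51, and at 2.47 and 2.27 per kb of the other bases against 1.53 and 1.42. These densities were not weighted by CpG content, width or value either.

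Most other promoter words were also denser inside footprints in both libraries; the exception was ZNF143, at 0.930-fold and 4.92-fold on 5 and 13 sites inside. The contrast was 13.02-fold and 14.4-fold for NRF1, a regulator of mitochondrial and growth genes, 8.02-fold and 10.0-fold for the CRE of CREB and ATF factors, 3.72-fold and 4.62-fold for RFX, 2.12-fold and 2.35-fold for YY1, 2.05-fold and 2.61-fold for ETS, and 1.57-fold and 1.70-fold for NFY. For NRF1 these rest on 70 sites inside footprints in each library and for CRE on 46 and 53. Among peaks at starts the contrasts were smaller in packed peaks than in the others for both words: 12.9-fold and 15.6-fold against 39.2-fold and 42.7-fold for NRF1, and 8.33-fold and 12.4-fold against 14.98-fold and 27.5-fold for CRE. The TATA box ran the other way, with 2.53-fold and 2.80-fold in packed peaks, on 28 and 33 sites inside, against 1.02-fold and 1.15-fold. The CTCF core, 14.0-fold and 14.5-fold denser inside, had 30 and 32 sites inside footprints of packed peaks. At starts that was 0.0938 and 0.0837 per kb of footprint in packed peaks against 0.370 and 0.370 in the others, and over 5 kb from every start, on 6 and 9 sites, 0.376 and 0.497 against 2.31 and 2.06.

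The E-box, TEAD, AP-1 and forkhead words did not share this pattern. The CAGCTG E-box was 0.823-fold and 0.729-fold as dense inside footprints of packed peaks as outside, TEAD letters 0.895-fold and 1.01-fold, AP-1 letters 0.279-fold and 0.179-fold and forkhead letters 0.233-fold and 0.175-fold, the last 2 on 9 and 7 and on 3 and 3 sites inside. Among peaks at starts the E-box stood at 0.705-fold and 0.608-fold in packed peaks and at 0.999-fold and 0.934-fold in the others. AP-1 and forkhead letters were likewise sparser inside footprints of other shared peaks at starts, at 0.298-fold and 0.450-fold and at 0.273-fold and 0.249-fold.

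**Figure D5:**
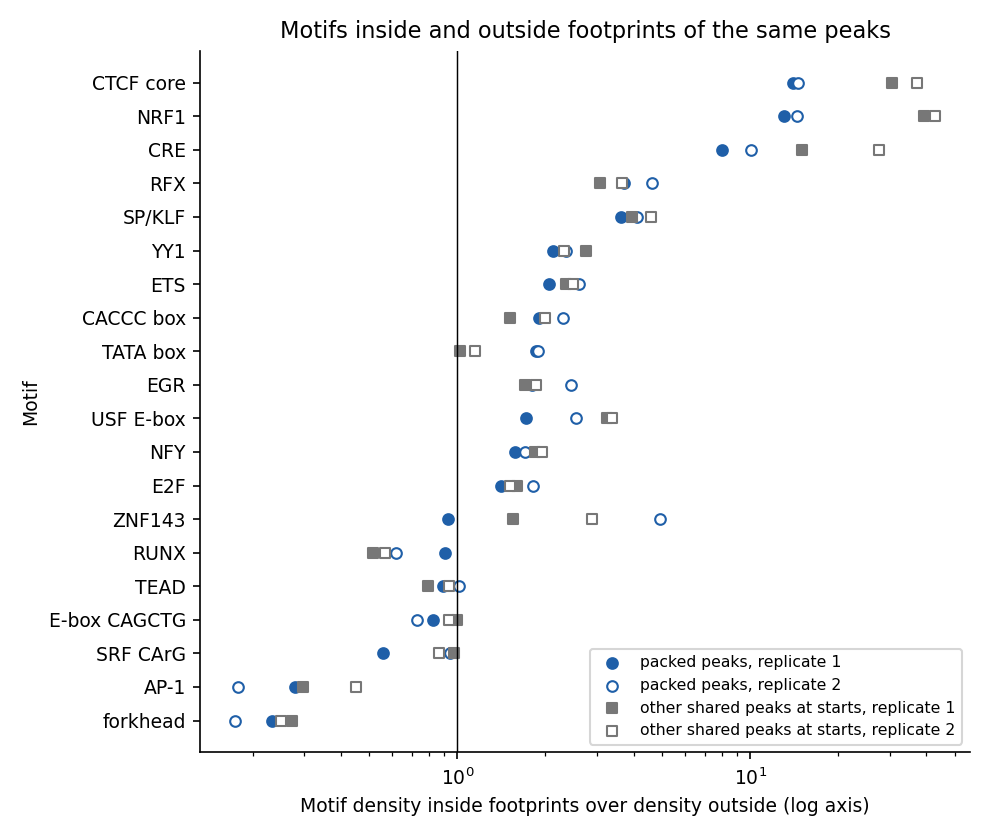
Ratio of motif density inside footprints to density in the other bases of the same peaks, on a log axis, for packed peaks (circles) and other shared peaks at starts (squares), replicate 1 filled and replicate 2 open; the line marks equal density. SP/KLF lies at 3.61 and 4.12 in packed peaks, NRF1 and the CTCF core above 10, AP-1 and forkhead under 1; in packed peaks ZNF143, RUNX, SRF CArG, AP-1 and forkhead rest on 13 or fewer sites inside footprints. MEF2 and the full NFI site are left out, with 5 or fewer sites inside.

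Among distal packed peaks the number of SP/KLF letters differed with CpG content, which itself bears on how often GGGCGGG occurs. In the 49 CpG-rich ones SP/KLF letters were 4.32-fold and 5.25-fold denser inside footprints, on 30 and 39 sites. In the 139 CpG-poor ones they were 2.31-fold and 3.24-fold denser, on 10 and 13 sites. The muscle E-box was present in 53.2% and 54.0% of the CpG-poor peaks, against 25.3% and 28.2% of other distal shared peaks, which are narrower. In fixed windows of 300 bp it was in 42.0% of all 188 distal packed peaks and in 33.3% of other distal shared peaks. Inside footprints of the CpG-poor peaks its density was close to that outside, at 2.55 against 2.23 per kb in replicate 1 and 2.32 against 2.54 in replicate 2, a ratio of 1.14 and 0.912, where other distal shared peaks had 1.49 and 1.60. RFX letters, on 6 and 7 sites, were 4.85-fold and 8.73-fold denser inside, and other distal shared peaks had 2.77-fold and 3.60-fold.

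A search without named motifs gave words of the same kind. Of the 1402 words of 8 bases (each counted with its reverse complement) that occurred at least 20 times inside footprints of packed peaks at starts in both libraries, 1033 were denser inside in both libraries and 115 at least 3-fold in both. The minimum applied only to counts inside footprints, which favours words that are frequent there. The 1033 are therefore not read as a share of all words. The words with the largest contrast are shown, and the smaller ratio of both libraries sets the order. The first is the NRF1 word itself, and the others share part of the NRF1 or CRE letters.
NRF1 palindrome: CGCATGCG
CRE-like word: ACGTCACG
NRF1-like word: GCATGCGC
CRE-like word: GACGTCAC
The first was found 59 times inside footprints in each library and 12 and 8 times outside, a ratio of 12.3 and 14.7 after 0.5 was added to each count. GCATGCGC had 105 and 99 inside against 23 and 20 outside, ACGTCACG 30 and 28 against 4 and 5, and GACGTCAC 54 and 60 against 15 and 8. By number the word CCCCGCCC led, with 1000 and 1128 inside and 515 and 341 outside. CCGCCGCC, a repeat common in CpG islands, had 553 and 494 inside and 636 and 557 outside. Footprints hold 27.6% and 32.0% of the bases of packed peaks at starts, so both words were denser inside, CCGCCGCC by less.

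Of the protein-coding genes, 1642 had a packed peak reaching within 500 bp of a coding start: 7.93% of the 20698 on these chromosomes and 11.8% of the 13878 with any shared peak there. Lists of genes by role are read against that 11.8%. They are short and were chosen with earlier results of these data known, so their counts are descriptions.

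Each list of muscle fibre genes had 1. Among fast fibre genes 1 of 17 with a shared peak at the start had a packed peak: Acta1, skeletal muscle actin, with 6 and 7 footprints at values of 3.11 and 6.41. Among slow fibre genes it was 1 of 8, Atp2a2, the slow and cardiac calcium pump, with 6 and 8 at 6.97 and 9.40, and among sarcomere and triad genes 1 of 25, Jph2, junctophilin of the triad, with 7 and 6 at 2.19 and 4.01. Acta1 and Jph2 stood out from most packed promoters by their CpG ratios of 0.382 and 0.275. Of the myogenic factors 3 of 12 had one, among them Mef2a with 6 and 8 footprints at 4.07 and 7.04, and Myod1, the founding myogenic bHLH factor, with 6 and 7 at 3.17 and 7.39.

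Of the lists of genes that mark other cell types, whether of this tissue or not, 5 with a shared peak at 2 or more starts had no packed peak. Of 13 satellite cell genes with a shared peak at the start, 12 endothelial, 11 pericyte and smooth muscle, 11 neuronal and 2 macrophage genes, none had a packed peak; 1 hepatocyte gene had a shared peak and it was not packed, and no lymphocyte gene had a shared peak. Fibroblast genes had 2 of 14, Fbn1, fibrillin-1, with 11 and 8 footprints at 2.88 and 4.85, and Tcf4, with 12 and 7 at 1.67 and 1.67. The Tcf4 peak is that of the gene with this symbol on chromosome 18, at chr18:69346001-69346600. Whether that gene marks fibroblasts was not tested. Of 9 Schwann cell genes 1 had one, Prx, periaxin of myelin, with 6 in each at 9.86 and 13.5. Lists of few genes near 11.8% can hold none, so the zeros are not read as differences. A shared peak at the start was present in 17 of 18 fast fibre, 8 of 12 slow fibre, 25 of 26 sarcomere and triad, 13 of 13 satellite cell, 14 of 15 fibroblast, 12 of 14 endothelial, 11 of 11 pericyte and smooth muscle, 9 of 11 Schwann cell, 11 of 13 neuronal, 2 of 14 macrophage, 1 of 14 hepatocyte and 0 of 12 lymphocyte genes.

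The clock genes and the NFI, KLF and SP factors had the highest shares of the 21 lists. Of the circadian clock genes 7 of 17 had a packed peak: Per1, Nfil3, Per2, Arntl, Clock, Dbp and Tef. Per1, a repressor of the clock, had 10 and 11 footprints at chr11:69094741-69095280 and values of 6.94 and 17.7, the PAR-related repressor Nfil3 had 8 and 9 at 4.22 and 5.15, and Per2 had 7 and 9 at 9.34 and 14.4. Of the NFI, KLF and SP factor genes 6 of 18 did: Klf10, Klf9, Klf3, Nfic, Sp1 and Klf13. Klf9, a glucocorticoid-induced factor, had 11 and 14 at 6.72 and 11.004, and Klf3 had 9 and 8 at 7.08 and 13.1.

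Of the immediate early genes 4 of 24 had one: Cebpb with 9 in each library at 4.89 and 5.86, Fosl2 with 16 and 7 at 5.01 and 14.1, Myc with 9 and 7 at 2.35 and 4.75, and Btg1. Insulin and IGF signalling had 2 of 17, the kinase gene Akt1 with 9 and 8 at 2.25 and 2.21, and the receptor substrate gene Irs1 with 9 and 7 at 4.40 and 7.42. Limb position genes had 2 of 16, the hindlimb factor Pitx1 with 6 and 8 at 1.15 and 1.21, where only 2 footprints were overlapped, and Lmx1b, which sets dorsal limb identity, with 7 and 6 at 1.15 and 0.775.

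Genes of general upkeep, and gene families taken by symbol, lay on either side of 11.8%. Housekeeping genes had 5 of 17, among them Eef1a1, the elongation factor, with 12 and 11 footprints at 5.50 and 10.2, Actg1 with 9 and 7 at 5.19 and 7.95, and Actb and Ppia. General transcription and chromatin genes had 3 of 24, among them Ctcf with 9 and 7 at 7.08 and 9.92, and Chd4 with 7 in each at 7.06 and 10.7. Replication-dependent histone genes had 2 of 12, Hist2h2be with 6 and 8 at 1.18 and 2.66 and Hist1h1e with 6 and 7 at 7.05 and 8.61. By symbol, 6 of 76 ribosomal protein genes had a packed peak, 25 of 311 Zfp zinc finger genes, 25 of 221 solute carriers, 4 of 31 forkhead genes, 1 of 15 Sox genes and 0 of 12 olfactory receptor genes. In each of these families but the forkhead genes the share was under 11.8%, but solute carriers, at 11.3%, and forkhead genes, at 12.9%, lay near it. Small families near 11.8% can hold few or none, so these shares are not read as differences.

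A single gene could have several. Separate packed stretches within 500 bp of its coding starts numbered 2 or more in 34 genes, and 4 in Gnas and in Ppp2r3d. Gnas, an imprinted locus that makes several proteins from alternative promoters, had packed peaks at chr2:174297421-174297620, chr2:174327321-174327980, chr2:174329661-174330140 and chr2:174330601-174331160. Their values differed widely: 1.58 and 1.03 at the first, 1.58 and 1.79 at the second, 5.86 and 10.4 at the third, with 11 and 12 footprints and all 11 overlapped, and 3.68 and 4.23 at the last.

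Ppp2r3d, a regulatory subunit of protein phosphatase 2A, had 3 strong packed peaks between chr9:124422901-124423480 and chr9:124424481-124424840, with values of 7.83 and 13.7, 8.13 and 13.7, and 10.4 and 19.1. Its last stretch, at chr9:124439841-124440900, held a pair of overlapping packed peaks with values of 0.914 and 0.863 and of 0.865 and 0.863. These multiple promoters were picked for their number.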

How the data were processed

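DNase-seq peaks, footprints and false discovery rates of 2 libraries were used as deposited. Each library's files were made from its own filtered alignments to mm10, without pooling, per the deposited sample notes; aligner and callers: not given in the sources used here. Per the file's values, the peak value is a depth-scaled signal made by the authors, in an unknown window. The deposited footprints carry 1 p-value, 0.01, on every line, so positions alone were used, and the deposited false discovery rates list only positions under 0.05. CAST alleles were not analysed here.

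Footprints were assigned to peaks by midpoint with Python 3.11.15, numpy 2.4.6, scipy 1.17.1 and pandas 2.3.3, code tested on simulated data (321 shared peaks, 0 wrong answers). Starts, exons and UTRs came from GENCODE M21 without pseudogenes, sequence and soft-masked repeats from GRCm38.p6. Members, gene lists and motifs were chosen with earlier results of these data known. Named are the 12 first-ranked members, the 6 first over 5 kb from every start, and up to 3 genes per list, ranked by the smaller footprint count, the sum and the peak value; others are marked where they were picked for their values. The 21 lists hold 337 symbols, 331 of them on chromosomes 1 to 19 with a coding start. Alternatives changed the minimum of 6 footprints, the peak set, the overlap, the counting of footprints, the distances, the motif letters and the CpG window; 1 was added after seeing the data. X and Y were outside the rule. Some list members are not reported here.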

Additional observations from a re-analysis of the deposited data

Results flagged for a closer look

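Chromosomes X and Y were not part of the choice of peaks. By the same counts, 49 of the 2532 shared peaks on chromosome X were packed (1.94%, interval 1.44 to 2.55), beside 2.15% on chromosomes 1 to 19, and 2 of 41 on chromosome Y. The X peaks are flagged because they are signal in data that the comparisons did not use, above the 3 counts that a count of 0 allows.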

How the results depend on the processing

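Of 68 alternative values for 8 results, 33 stayed within the spread used to judge them and 35 moved. That spread differed between results, and for the CpG ratio the standard deviation between libraries was only 0.00167. With footprints counted only when wholly inside the peak there were 1680 packed peaks and 1353 genes, and both counted as within the spread. The tally therefore depends on the spread of each result. No paired analysis was possible because there was only 1 group. With at least 5 footprints in each library there were 5361 packed peaks, with a median width of 260 bp, 70.92% at starts, 14.81% over 5 kb from every start, a CpG ratio of 0.8015 and 3807 genes. With at least 8 these were 343 peaks, 460 bp, 5.831% over 5 kb, 0.8545 and 303 genes, and 72.6% of replicate 1 footprints were overlapped. From 1 library alone (without replicate 1 or without replicate 2) there were 5684 to 5787 peaks, 280 to 300 bp wide, with 57.99% to 69.76% at starts, 14.24% to 24.91% over 5 kb, CpG ratios of 0.6966 to 0.7962, 3235 to 3993 genes and an SP/KLF contrast of 3.574 to 4.248; the lower share at starts is that of replicate 2 alone. An overlap between libraries has no value there. In the stricter deposited peak set 80.02% lay at starts, the CpG ratio was 0.8414 and 75.77% of footprints were overlapped; with an overlap of at least 50% of both peaks the last 2 were 0.8384 and 75.58%. Within 1000 bp of a start lay 83.56%, over 10 kb from every start 6.587%, and 60.7% of footprints had midpoints within 5 bp of each other. The longer motif GGGGCGGGG had a contrast of 6.548, and 200 bp around the midpoint had a CpG ratio of 0.8556. Keeping 1 peak per separate stretch, an alternative chosen after seeing the data, gave 1972 peaks and moved none of the 8 results. Fewer footprints overlapped between libraries in peaks of low value; the part of depth in this, and the cause of the changes above beyond the altered choice itself, was not tested.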
